A study of Mus musculus with 2 samples.

Results

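The 34 mouse genes described here encode the enzymes that make and break down cyclic nucleotides: 10 adenylate cyclase genes (Adcy1 to Adcy10) and 24 phosphodiesterase genes (the Pde1 to Pde11 families). They were chosen by gene name, as all members of both families on a fixed list, out of 21755 protein-coding genes on chromosomes 1 to 19 and X. The rule of choice used no measured value, but earlier results of these data were known when the choice was made. The measurements are 2 DNase-seq libraries, each from the left cerebral cortex of 1 male mouse aged 36 days of strain B6CASTF1/J, the first-generation hybrid of a C57BL/6 and a CAST parent. The samples form 1 group with no treatment and no genetic alteration named. The labels number the mice as separate males but give them the same donor record, so the spread between replicates 1 and 2 is that between these 2 libraries.

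Cells make cyclic AMP at adenylate cyclases, most of which sit in the plasma membrane and answer to G proteins, and phosphodiesterases split cyclic AMP and cyclic GMP back to the inactive monophosphates. In cortical neurons this balance sets the activity of protein kinase A, of cyclic nucleotide-gated channels and of CREB, a transcription factor that binds the cyclic AMP response element. Many of these genes are long and start from several promoters, and in the Pde4 genes the choice of start decides which long or short enzyme form is made.

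DNase I cuts DNA where chromatin is open, so a peak of cuts marks an accessible site, and a short stretch inside it that is spared from cutting is a footprint, usually read as bound protein. The authors' shorter peak list held 72021 peaks in replicate 1 and 59150 in replicate 2, with 288172 and 224558 footprints. A gene's promoter height here is the height of its highest peak within 1 kb of any annotated start, as deposited, and 0 where no peak was listed. Replicate 1 was the higher library at most promoters: of the 12548 protein-coding genes with a promoter peak in both mice, 91.1% were higher in replicate 1, with a median log2 ratio of 0.73. All 5 excitatory neuron markers had a promoter peak in both mice, whereas all 5 microglial and all 5 endothelial markers were at 0. Between them stood the inhibitory neuron markers (3 of 5 in replicate 1 and 2 in replicate 2, none in both), the astrocyte markers (3 and 1 of 5) and the oligodendrocyte markers (1 and 2 of 5). Tissue was not sorted, so more cells with an open site and a wider opening per cell cannot be told apart. How reads of the CAST alleles were placed on the C57BL/6 reference was not tested.

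A promoter peak was found at 26 of the 34 genes in replicate 1 (76.5%) and at 23 in replicate 2 (67.6%), a mean of 72.1% ± 6.24 (SD, n = 2). Among all protein-coding genes the shares were 63.5% and 58.4%. The 22 genes open in both mice amount to 64.7%, beside 57.7% of all protein-coding genes. Adcy1, Adcy7, Pde1c and Pde11a were open in replicate 1 alone, and Adcy4 in replicate 2 alone. Adcy10, Pde4c, Pde6a, Pde6b, Pde6c, Pde6g and Pde6h had no promoter peak in either mouse. The open members were lower than most open promoters: a member with a peak had a median of 2.32 in replicate 1 and 1.18 in replicate 2, against 4.40 and 2.65 for all protein-coding genes with a peak. With closed genes counted at 0, the medians were 1.85 and 0.777 for the members and 2.05 and 1.04 for all protein-coding genes.

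**Figure D1:**
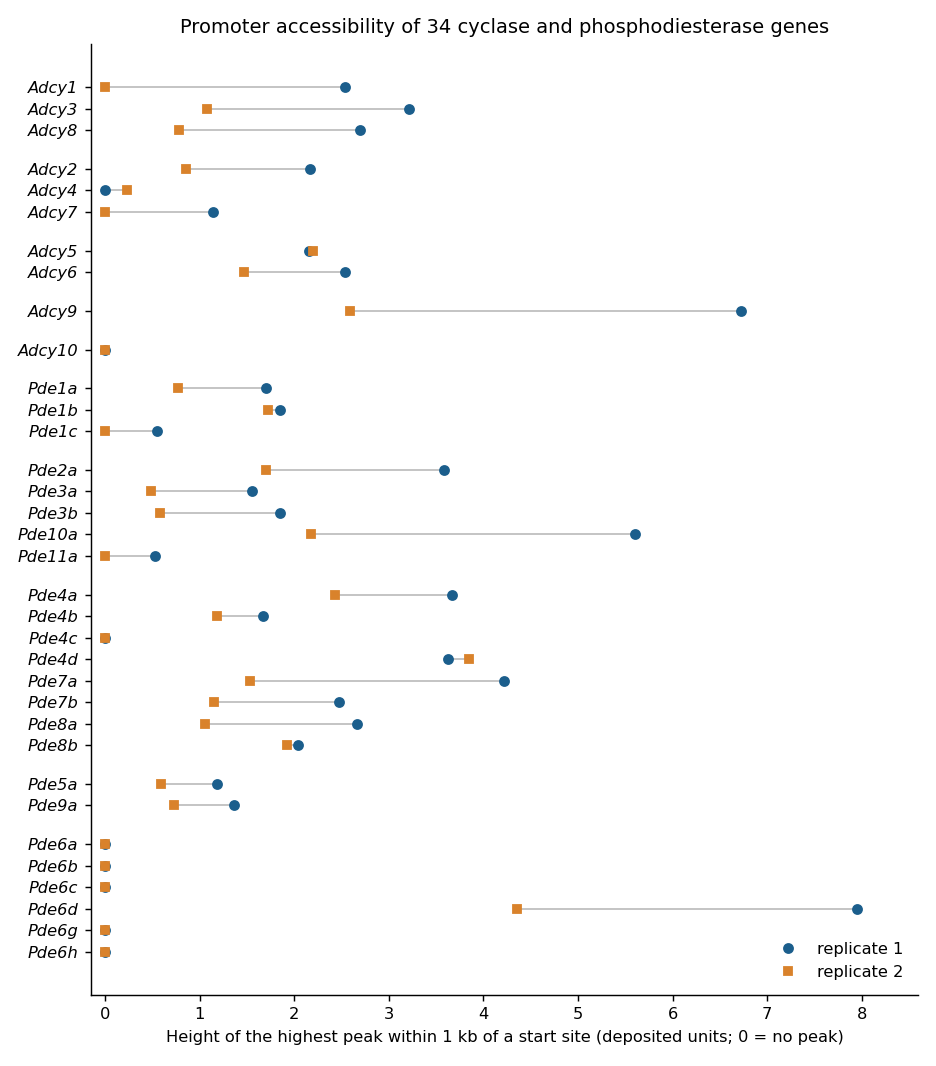
Height of the highest promoter peak (x axis, deposited units, 0 = no peak) of each of the 34 genes in replicate 1 (circles) and replicate 2 (squares), grouped by enzyme class from the cyclases at the top to the photoreceptor family at the bottom; grey lines join both mice. Pde6d, Adcy9 and Pde10a reach the highest values, 7.95, 6.72 and 5.60 in replicate 1, and 7 genes sit at 0 in both mice.

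Pde6d, Adcy9 and Pde10a had the highest promoters of the set, and part of each is shown on the strand of its gene, in the C57BL/6 reference sequence of GRCm38 (mm10). Capitals mark footprints of replicate 1, and bases of annotated exons are left out.
Pde6d, chr1:86582630-86582700, minus strand: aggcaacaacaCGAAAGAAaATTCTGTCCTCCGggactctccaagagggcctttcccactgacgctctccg
Adcy9, chr16:4420499-4420620, minus strand: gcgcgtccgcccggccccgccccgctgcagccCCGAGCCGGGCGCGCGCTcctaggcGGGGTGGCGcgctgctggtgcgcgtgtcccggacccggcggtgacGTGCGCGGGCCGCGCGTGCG
Pde10a, chr17:8524901-8525160, plus strand: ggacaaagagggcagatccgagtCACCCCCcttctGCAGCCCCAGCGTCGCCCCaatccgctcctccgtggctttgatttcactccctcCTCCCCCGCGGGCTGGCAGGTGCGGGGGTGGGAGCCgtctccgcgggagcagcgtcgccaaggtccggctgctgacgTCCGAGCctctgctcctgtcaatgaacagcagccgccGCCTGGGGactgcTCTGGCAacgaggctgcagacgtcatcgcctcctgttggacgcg
The whole Pde10a peak of replicate 1 held 6 footprints, and in all 3 stretches the capitals form separate runs with unprotected bases between them.

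Among the cyclases that calcium and calmodulin stimulate, Adcy1, Adcy3 and Adcy8 were all open in replicate 1. Adcy1, a neuronal enzyme tied to synaptic plasticity, had a height of 2.54 in replicate 1 (chr11:7063261-7063460, centred at −129 bp from its start, with negative distances upstream) and no peak in replicate 2, where the longer peak list and the authors' false discovery rate list were also empty at its starts. Adcy3, the cyclase of olfactory and neuronal cilia, stood at 3.21 and 1.08 on an exon at its first start group (chr12:4133301-4133600 in replicate 1). Adcy8 stood at 2.69 and 0.784, with the highest peak upstream of the start in replicate 1 (chr15:64922061-64922660) and in the first exon in replicate 2 (chr15:64921361-64921780). The gap between the mice was wide at each of the 3 genes, 1.57 ± 0.13 on the log2 scale for Adcy3 and 1.78 ± 0.15 for Adcy8, where the error is the counting error of the heights.

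Of the 3 cyclases stimulated by G protein beta-gamma subunits, 2 were open in each mouse and only Adcy2 in both. Adcy2, the form of this class best known from brain, had heights of 2.16 and 0.853 at its single start (chr13:68999221-68999840 in replicate 1). Adcy7 had 1.14 in replicate 1 (chr8:88272433-88272680, the start of Adcy7-203) and none in replicate 2. There the longer peak list placed a peak of 0.399 at this start, with a lowest listed false discovery rate of 0.0172. Adcy4 was open in replicate 2 alone, with intronic peaks of 0.227 at 415 bp and 0.165 at 956 bp from a start. They were among 8 sites around Adcy4 in replicate 2, of which 6 were at or below 0.241 and absent from replicate 1.

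The calcium-inhibited cyclases were open in both mice. Adcy5, the main cyclase of the striatum, stood at 2.15 and 2.20, and this peak was not at its protein-coding start but in an intron, at −82 bp from the start of the noncoding transcript Adcy5-202 (chr16:35270501-35270660). At the coding start, Adcy5-201, the heights were 1.82 and 0.956. Adcy6, its close relative, stood at 2.54 and 1.47 in an intron at 592 bp from a start (chr15:98609341-98609540). Adcy9, a widely expressed cyclase that forskolin barely stimulates, was the highest cyclase promoter with 6.72 and 2.59, at the start of Adcy9-203 (chr16:4420341-4420620 in replicate 1). Adcy10, the soluble cyclase that bicarbonate activates, had no peak at any of its 5 start groups, although the longer list placed a peak of 0.393 at the first group in replicate 1 and a peak of 0.371 at the next group in replicate 2. The lowest listed false discovery rates at these groups were 0.00162 and 0.00359, and neither group had a peak in the other mouse. Adcy5 was 1 of 2 genes open in both mice whose promoter was not higher in replicate 1, and its intronic sequence is shown on the plus strand with the footprints of replicate 1 in capitals.
Adcy5 intron, chr16:35270501-35270660: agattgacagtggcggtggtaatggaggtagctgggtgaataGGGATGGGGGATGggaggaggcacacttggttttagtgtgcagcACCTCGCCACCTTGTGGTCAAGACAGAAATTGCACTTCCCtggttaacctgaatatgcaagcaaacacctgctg

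Of the 18 phosphodiesterase genes outside the photoreceptor family, 17 were open in replicate 1 and 15 in replicate 2. The calmodulin-activated Pde1 genes were modest. Pde1a stood at 1.71 and 0.770 (chr2:80128821-80129140 in replicate 1). Pde1b stood at 1.85 and 1.72, but at different starts: on the exon of its first start group in replicate 1 (chr15:103502941-103503360) and upstream of Pde1b-205 in replicate 2 (chr15:103514181-103514360). Pde1c was at 0.543 in replicate 1 alone (chr6:56568770-56568887).

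The dual-substrate enzymes cleave both nucleotides. Pde10a, best known from striatal projection neurons, was the highest of them at 5.60 and 2.18 upstream of its first start. The 8 markers fixed for striatal projection neurons had promoter peaks at 7 and 4 genes, with summed heights of 14.6 and 8.78: Rgs9 stood at 4.45 and 3.22, Drd1 at 2.56 and 2.31, and Drd2 at 0 in both mice. The part of such cells in the Pde10a peak was not tested. Pde2a, which cyclic GMP stimulates, stood at 3.58 and 1.70, with its highest peak at the start of Pde2a-204 and Pde2a-206 in replicate 1 (chr7:101450581-101450840) and at its first start in replicate 2 (chr7:101421587-101421820). Pde3a and Pde3b, which cyclic GMP inhibits, were lower. Pde3a stood at 1.55 and 0.482 (chr6:141249661-141250160) and Pde3b at 1.85 (chr7:114415681-114416620) and 0.578 (chr7:114415141-114415240), with log2 ratios of 1.69 ± 0.20 and 1.68 ± 0.18. Pde11a was at 0.531 in replicate 1 alone (chr2:76338902-76338960).

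Of the 8 cyclic AMP-specific genes, 7 were open in both mice. Pde4d, the largest gene of the set at 1503514 bp, stood at 3.63 and 3.85, and Pde4a at 3.67 and 2.43 (chr9:21165041-21165620). Pde4b, a target of the inhibitor rolipram, stood at 1.67 (chr4:102589661-102590040) and 1.18 (chr4:102588788-102588980). Pde4c was the exception, with no peak and no listed base at its starts. Among the high-affinity enzymes, Pde7a stood at 4.22 and 1.53 (chr3:19311261-19311420 in replicate 1) and Pde7b at 2.47 and 1.16 (chr10:20724941-20725160 in replicate 1). Pde8a stood at 2.67 and 1.06 (chr7:81213101-81213340). Pde8b stood at 2.04 and 1.92, at chr13:95222641-95223260 in replicate 1 and at chr13:95034801-95035100 in replicate 2, centred at −697 bp from Pde8b-211.

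Both cyclic GMP-specific genes were open and low. Pde5a, the target of sildenafil, stood at 1.18 and 0.592, and Pde9a, the form with the highest affinity for cyclic GMP, at 1.36 and 0.729 (chr17:31386065-31386220). In the photoreceptor family the rod and cone genes Pde6a, Pde6b, Pde6c, Pde6g and Pde6h had no promoter peak and no listed base at their starts in either mouse. Pde6d, whose product is a prenyl-binding carrier of membrane proteins and not a catalytic subunit, had the highest promoter of all 34 genes at 7.95 and 4.35 (chr1:86582481-86582700). That peak lay 204 bp from the start of the divergent neighbour Cops7b, a subunit gene of the COP9 signalosome, and replicate 2 had a further peak of 2.82 on the Cops7b start itself (chr1:86582761-86582960). Of the other 8 photoreceptor genes on the fixed list, 2 were open in replicate 1 and 3 in replicate 2, among them Gnat1 at 1.87 and 1.45.

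Closed and open members differed in base composition, which the choice of genes did not use. The ratio of observed to expected CpG was taken in the 1 kb around each annotated start, and the highest value of each gene was kept. That start need not be the open one, and a gene with more starts has more values to choose from. The median was 0.773 in the 22 genes open in both mice and 0.636 in the 5 open in 1 mouse. It was 0.312 in the 7 closed genes, 5 of them of the photoreceptor family, where the ratio ran from 0.147 to 0.486. The median of all protein-coding genes, which were not split into open and closed, was 0.631. Each closed promoter lay under that value, and the lowest open in both mice was 0.437.

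Many members were open at more than 1 start. Starts within 500 bp of each other were joined into groups, and the members had 144 such groups, of which 36.8% carried a peak in replicate 1 and 28.5% in replicate 2. Among all protein-coding genes the shares were 33.5% and 29.1% of 52275 groups, so the share per group was near the background. Of the 29 members with several groups, 13 (44.8%) were open at more than 1 of them in replicate 1 and 11 (37.9%) in replicate 2, beside 21.5% and 15.8% of all such protein-coding genes. These members had more groups to begin with, a mean of 4.79 per gene against 3.33, and the part of that number in the difference was not tested. With a peak in at least 1 mouse counted, Pde4d was open at 8 of 15 groups, Pde4b at 5 of 8, Pde2a at 4 of 8, and Pde10a at 3 of 10. In each of these 4 genes some of the groups were open in 1 mouse alone. By contrast Pde9a, with 10 groups, was open at 1.

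Along Pde4d the starts differed in how alike the mice were. At the long-form start Pde4d-205 the highest peaks were 2.53 and 0.530 but lay at different places. They were chr13:109440941-109441200 in replicate 1 and chr13:109441523-109441686 in replicate 2, and the replicate 1 peak overlapping the latter stood at 1.09. At the group of Pde4d-208, Pde4d-210 and Pde4d-214 the heights were 2.09 and 0.674. At Pde4d-203, close to the 3′ end of the gene, they were 3.63 and 3.85, a log2 ratio of −0.08 ± 0.09. This was the highest Pde4d start in both mice. Its sequence upstream of the exon is shown on the plus strand, with the footprints of replicate 1 in capitals.
Pde4d-203, chr13:109926661-109926843: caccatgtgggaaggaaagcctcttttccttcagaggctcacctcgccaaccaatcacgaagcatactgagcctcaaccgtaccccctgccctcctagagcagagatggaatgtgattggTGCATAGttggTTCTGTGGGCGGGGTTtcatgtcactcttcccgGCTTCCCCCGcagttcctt
The second capital run holds GGGCGG, the core letters that Sp and KLF factors bind. In Pde4b the highest peak also lay at the 3′ start group, that of Pde4b-202 and Pde4b-204, at 1.67 and 1.18. The gaps to other starts were smaller than in Pde4d. The first 5′ start group stood at 1.49 and 0.674, close to the 3′ group in replicate 1, and the second at 1.09 and 0.853. In replicate 2 that highest peak was centred at −839 bp from the start, and the peak on the start itself stood at 0.846. With a window of 500 bp the highest Pde4b peak of replicate 2 was 0.853, so its 3′ maximum depends on the window. In Pde10a the order was the opposite, with the first start at 5.60 and 2.18 and the inner group of Pde10a-202 at 2.15 and 0.936.

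**Figure D2:**
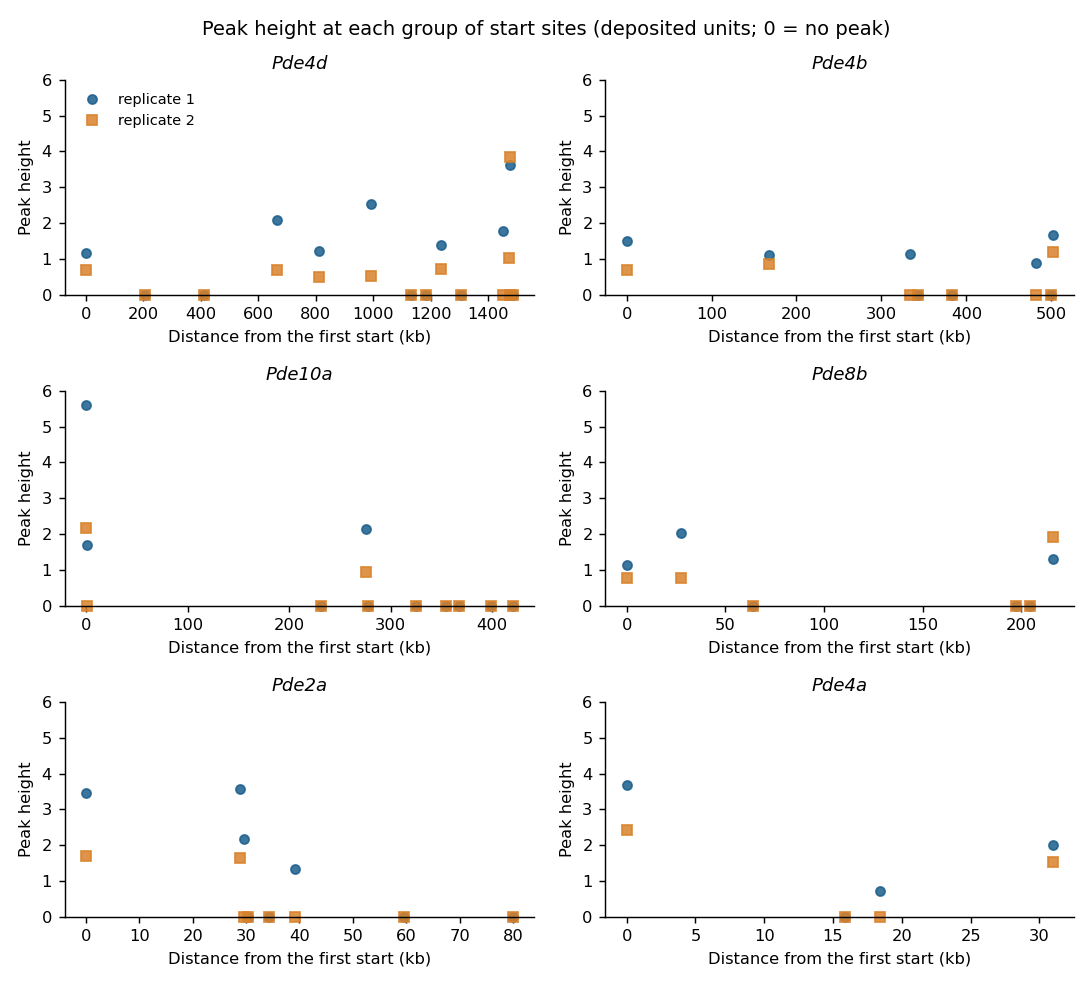
Peak height (y axis, deposited units, 0 = no peak) at each group of annotated starts against its distance from the first start of the gene (x axis, kb) in 6 genes, for replicate 1 (circles) and replicate 2 (squares). With peaks up to 1 kb from a start counted, the highest start group of both mice lies near the 3′ end in Pde4d and Pde4b. In Pde10a it is the first start.

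Of the 22 members open in both mice, 20 were higher in replicate 1, where the background was 91.1%. The median log2 ratio was 1.09, against 0.73 for all protein-coding genes, of which 90% lay between −0.16 and 1.60. In 18 genes the ratio was more than 2 counting errors above 0. This count was not made over all protein-coding genes, so it has no background share beside it. The other 4 were Pde4d, Adcy5, Pde8b (0.09 ± 0.12) and Pde1b (0.10 ± 0.12), all within 2 counting errors of 0. In 7 genes (Adcy8, Pde1b, Pde2a, Pde3b, Pde4b, Pde5a and Pde8b) the highest peaks of the mice did not lie at the same place, so the ratio compares different sites. When promoter sites of both mice were matched by place, the median was 0.98 over 47 sites of the members and 0.75 over 16128 sites of all protein-coding genes. Among the 2915 protein-coding genes with mean heights between 1.45 and 2.82, the middle range of the members, the median was 0.96, and among the 10 members in that range it was 1.09.

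The ratio moved with base composition. In the 23 member promoter sites with at least 60% GC in the surrounding 500 bp, the median log2 ratio was 1.34 and all 23 were higher in replicate 1. In the 16 sites with 50% to 60% GC it was 0.57, and in the 8 sites under 50% GC it was 0.22. All promoter sites moved the same way, with medians of 0.95, 0.51 and 0.22. The highest peaks of Pde4d and Adcy5, whose heights were alike in both mice, had 48.4% and 53.8% GC in replicate 1. Not every gene followed this order: the highest peak of Pde1a, with a log2 ratio of 1.15, had 49.2% GC in replicate 1. Pde8b and Pde1b were also alike in height, but their highest peaks lay at different places in the mice. Those peaks had 78.0% and 73.2% GC in replicate 1, and 47.8% and 50.8% in replicate 2. No replicate 2 peak of the shorter list overlapped the Pde8b peak of replicate 1. The Pde1b peak of replicate 1, at 1.85, overlapped a replicate 2 peak of 1.28. The highest peak of Adcy1, open in replicate 1 alone, had 74.8% GC, and those of Adcy7, Pde1c and Pde11a had 71.8%, 66.0% and 68.6%. Whether GC content caused the gap between the libraries was not tested.

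**Figure D3:**
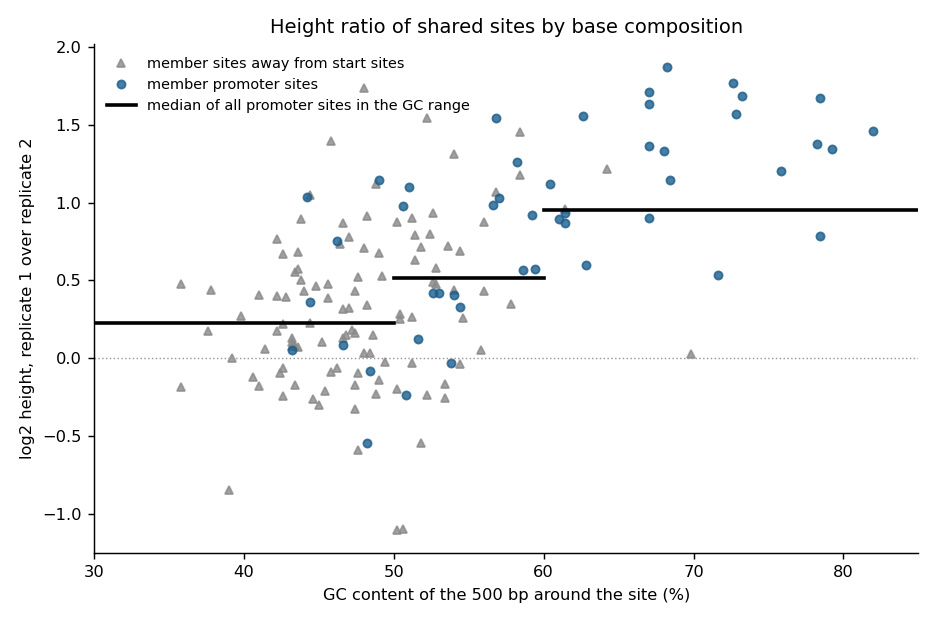
Log2 ratio of peak height, replicate 1 over replicate 2 (y axis), against the GC content of the 500 bp around each site (x axis, %), for the 47 promoter sites (circles) and the 110 sites away from start sites (triangles) that both mice shared; black lines are the medians of all promoter sites under 50%, from 50% to 60% and from 60% GC. The circles from 60% GC upwards all lie above 0.

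Beyond promoters, 365 accessible sites lay in the 34 gene bodies and the 10 kb on each side, and 171 of them (46.8%) were open in both. Among all 83641 merged sites the share was 52.5%. Another 135 member sites were seen in replicate 1 alone and 59 in replicate 2 alone. By place, 94 lay at the gene's own promoter, 191 in introns, 12 on exons, 21 in each flank, and 26 at the promoter of another gene. A member had a median of 8 sites against 3 for a protein-coding gene. Per 100 kb of body and flanks the medians were 5.47 and 5.13. The median gene lengths were 103305 and 17414 bp, and the part of length in the excess was not tested. Pde4d held the most with 49 sites (24 in both mice), then Pde10a with 38 (13), Pde4b with 30 (15) and Pde2a with 20 (6). Per length, Adcy4 (28.5 per 100 kb), Pde4c (27.4) and Pde4a (19.2) were the densest.

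**Figure D4:**
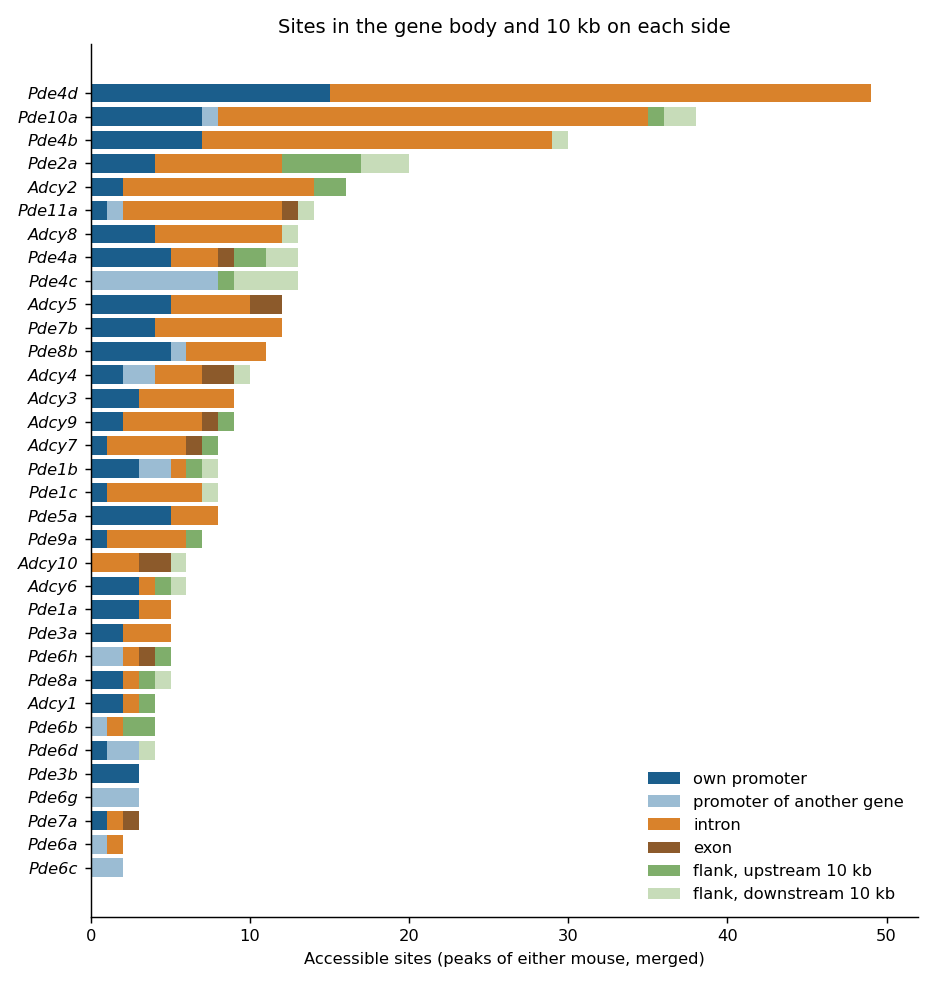
Number of accessible sites (x axis) in the body and 10 kb flanks of each gene (rows, ordered by total), split by place: own promoter, promoter of another gene, intron, exon and both flanks. Pde4d reaches 49 sites, mostly in introns, while all sites of Pde6g and Pde6c lie at promoters of other genes.

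The sites around the closed genes were mostly those of their neighbours. Of the 13 sites at Pde4c, 8 lay at other genes' promoters, with the highest at the starts of Rab3a (6.16 and 6.49) and Mpv17l2 (7.34 and 5.79), and none lay inside Pde4c. The Pde6a window held the promoter of Slc26a2 at 5.71 and 2.97, the Pde6b window that of Atp5k at 5.23 and 2.93, and the Pde6g window those of Nploc4 (3.62 and 1.05) and Oxld1 (3.31 and 0.908). Adcy10 differed in having open sites of its own body, of which the highest, on an exon at chr1:165559121-165559400, stood at 3.06 and 1.41.

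Some sites away from starts were as high as promoters of the set. The highest was centred at −4274 bp from the first Pde4a start (chr9:21161221-21161660), with heights of 8.21 and 3.54 and 9 footprints, against 3.67 and 2.43 at the promoter. An intron of Pde4d held a site of 5.25 and 3.18 (chr13:109822401-109822660), 65309 bp from the nearest Pde4d start, which was above the highest Pde4d start in replicate 1 (3.63) and below it in replicate 2 (3.85). Downstream of Pde4a a site stood at 3.75 and 3.67, above the Pde4a promoter in both mice (chr9:21220561-21220760). In Pde10a, whose promoter stood at 5.60 and 2.18, introns held sites of 2.52 and 3.17 (chr17:8858741-8858940) and of 2.91 and 2.77 (chr17:8614241-8614460). The 3 highest by the mean of both mice, which lie at Pde4a and Pde4d, are shown on the plus strand, the strand of both genes, with footprints of either mouse in capitals; the first is the run of 300 bases with the most footprint bases.
Pde4a upstream, chr9:21161263-21161562: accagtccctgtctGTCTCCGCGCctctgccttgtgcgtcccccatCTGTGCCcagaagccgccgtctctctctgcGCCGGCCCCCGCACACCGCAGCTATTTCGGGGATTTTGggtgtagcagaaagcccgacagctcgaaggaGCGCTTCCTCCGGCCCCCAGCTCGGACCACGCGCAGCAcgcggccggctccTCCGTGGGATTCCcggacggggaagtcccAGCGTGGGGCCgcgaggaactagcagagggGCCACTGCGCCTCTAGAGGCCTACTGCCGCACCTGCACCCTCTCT
Pde4d intron, chr13:109822401-109822660: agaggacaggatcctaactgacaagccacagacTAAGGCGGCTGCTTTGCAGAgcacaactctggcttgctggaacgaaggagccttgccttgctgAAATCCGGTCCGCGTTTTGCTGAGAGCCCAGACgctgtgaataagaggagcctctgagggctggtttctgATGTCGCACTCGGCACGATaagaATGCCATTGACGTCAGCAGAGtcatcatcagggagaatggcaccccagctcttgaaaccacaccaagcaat
Pde4a downstream, chr9:21220561-21220760: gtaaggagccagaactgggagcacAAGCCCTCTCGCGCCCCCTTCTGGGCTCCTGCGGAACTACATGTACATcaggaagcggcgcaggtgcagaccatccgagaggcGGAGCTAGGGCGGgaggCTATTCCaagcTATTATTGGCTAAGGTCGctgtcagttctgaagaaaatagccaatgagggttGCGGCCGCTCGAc
A long run of capitals in the Pde4d intron contains the letters TGACGTCA, and the first long run downstream of Pde4a contains GCGCCCCCT, the reverse complement of the core searched for CTCF, a factor that anchors chromatin loops. Shared sites away from starts had lower GC than promoters (a median of 47.4% over 110 sites, against 59.4% over the 47 promoter sites) and a smaller gap between the mice (a median log2 ratio of 0.30).

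The cyclic AMP response element, searched as the 8 letters TGACGTCA, which read the same on both strands, was found at 9 of the 365 sites, in 7 genes. At promoters it was found in 3 of 94 sites (3.19%), beside 2.28% of all merged sites within 1 kb of a start. Away from starts it was found in 6 of 245 sites (2.45%), beside 0.490% of all such sites. A footprint covered at least 50% of the element at 8 of the 9 sites, the exception being Pde4b. Over all sites with the element, footprints covered it at 89.9% near starts and 67.7% elsewhere. The sites are shown on the strand of each gene with the element in the middle of 80 bases and in capitals, or cut short at the edge of the site, since they carry the sequence through which cyclic AMP is known to reach transcription.
Pde7a promoter, chr3:19311377-19311420: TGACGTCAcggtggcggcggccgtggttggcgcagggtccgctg
Pde7b promoter, chr10:20725141-20725220: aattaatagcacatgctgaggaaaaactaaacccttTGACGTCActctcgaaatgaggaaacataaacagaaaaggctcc
Pde7b intron, chr10:20673943-20674022: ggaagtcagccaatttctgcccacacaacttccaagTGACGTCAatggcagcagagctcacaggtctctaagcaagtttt
Pde7b intron, chr10:20659447-20659526: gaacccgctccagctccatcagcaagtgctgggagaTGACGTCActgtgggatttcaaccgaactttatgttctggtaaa
Adcy8 promoter, chr15:64923159-64923238: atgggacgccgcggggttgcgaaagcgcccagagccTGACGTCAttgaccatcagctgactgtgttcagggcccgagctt
Pde4d intron, chr13:109822561-109822640: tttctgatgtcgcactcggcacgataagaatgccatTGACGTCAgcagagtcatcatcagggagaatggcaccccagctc
Adcy3 intron, chr12:4201644-4201723: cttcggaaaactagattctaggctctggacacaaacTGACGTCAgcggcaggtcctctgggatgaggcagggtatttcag
Pde4b intron, chr4:102511053-102511132: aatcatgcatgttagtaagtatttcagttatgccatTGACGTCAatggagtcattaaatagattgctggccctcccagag
Pde3a intron, chr6:141434463-141434542: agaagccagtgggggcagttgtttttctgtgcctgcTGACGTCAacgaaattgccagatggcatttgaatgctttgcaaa
In Pde7a and Pde7b, sister genes for high-affinity cyclic AMP hydrolysis, the element lay at nearly the same place, at −95 and −103 bp from a start. Pde7b held it at 3 of its 12 sites. By the mean of both mice the highest of these sites was that of Pde4d, at 5.25 and 3.18. The lowest was the inner Pde7b intron, at 0.956 and 0, the only 1 of the 9 merged sites without a peak in both mice. A merged site can be open in both mice while the element is not: it lay in the replicate 1 peak alone at the Pde7a promoter. At the Pde7b promoter it lay in the replicate 2 peak alone. The Adcy8 site stood at 2.19 and 0.750, the Adcy3 site at 2.07 and 1.38, the outer Pde7b intron at 2.46 and 1.86, the Pde4b site at 1.17 and 1.11, and the Pde3a site at 0.787 and 0.770. A match is a description of the letters and not of what binds there.

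Other letter patterns lay on either side of the level of all promoter peaks. The CTCF core, searched as AGNNGGCGC on both strands, was found in 16.9% of the 89 member promoter peaks of replicate 1 and 15.3% of the 59 of replicate 2, beside 15.1% and 12.3% of all promoter peaks. GGGCGG was found in 44.9% and 32.2% of member peaks, beside 54.6% and 51.2%, and CCGGAAG, the core of ETS factors, in 5.62% and 1.69%, beside 11.5% and 12.3%. The E-box CAGCTG was found in 21.3% and 20.3% of member peaks, beside 17.0% and 13.6%, and the E-box CAGATG in 13.5% and 13.6%, beside 11.7% and 9.48%. Part of the REST site, searched as GGACAGCGC, was in none of these peaks. The CTCF core lay in the highest promoter peak of Adcy2, Adcy8, Pde3a, Pde3b and Pde4a in at least 1 mouse, and the stretches outside exons are shown on the strand of each gene, with the match in capitals.
Adcy2, chr13:68999682-68999761: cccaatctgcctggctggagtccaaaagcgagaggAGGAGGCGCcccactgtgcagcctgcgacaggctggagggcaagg
Adcy8, chr15:64922496-64922575: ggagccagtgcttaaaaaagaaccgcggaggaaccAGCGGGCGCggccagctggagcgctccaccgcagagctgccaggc
Pde4a, chr9:21165101-21165180: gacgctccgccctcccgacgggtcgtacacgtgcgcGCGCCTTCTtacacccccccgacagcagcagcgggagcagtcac
Pde4a, chr9:21165527-21165606: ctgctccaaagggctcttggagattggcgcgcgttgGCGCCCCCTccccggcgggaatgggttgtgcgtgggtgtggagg
Both Pde4a matches lie in the peak of replicate 1, at −573 and −147 bp from the start.

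Member promoter peaks held a footprint about as often as all promoter peaks, but held fewer per length. Per 100 bp there were 1.13 footprints in replicate 1 and 1.30 in replicate 2, beside 1.20 and 1.46 over all promoter peaks. In replicate 1, 73 of 89 member promoter peaks (82.0%) held at least 1 whole footprint, beside 80.6% of all promoter peaks, and in replicate 2 it was 50 of 59 (84.7%), beside 85.3%.

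The enzymes' partners were open about as often as the enzymes but were higher. Of 53 other genes of cyclic nucleotide signalling on a fixed list, 41 had a promoter peak in replicate 1 (77.4%) and 38 in replicate 2 (71.7%), with 36 in both. Their median height, genes without a peak included, was 2.32 and 1.29, against 1.85 and 0.777 for the 34 enzymes. All 7 G protein alpha subunit genes, all 9 protein kinase A genes (subunits and inhibitors) and all 9 A-kinase anchoring protein genes were open in both mice. The highest mean heights were 9.52 ± 1.80 (SD, n = 2) at Prkaca, the gene of a main catalytic subunit, 9.43 ± 0.805 at the anchoring protein gene Akap8 and 8.83 ± 2.06 at the inhibitory alpha subunit gene Gnaz. The median height of the protein kinase A genes was 6.05 in replicate 1 and 2.31 in replicate 2. Of 10 other effectors, 8 and 4 were open. Among the pacemaker channel genes, Hcn4 was open in both mice at 2.40 and 0.715, and Hcn2 and Hcn3 were open in replicate 1 alone. Of 10 cyclic GMP genes, 6 were open in each mouse, with the soluble guanylate cyclase gene Gucy1a2 at 5.66 and 3.54. Cnga2, Cnga4, Gucy2c, Gucy2e, Gucy2f, Gnat2, Cnga1, Rcvrn and Sag, most of them sensory or intestinal, were among the genes with no promoter peak in either mouse.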

How the data were processed

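DNase-seq was done on 2 libraries, 1 per mouse, and each had 2 peak lists, a footprint list and per-base false discovery rates for the cut rate, on mm10 per the deposited file list. Peak heights are a signal that the authors deposited per library; they were whole multiples of 0.00625 in replicate 1 and 0.00688 in replicate 2 (within 0.02 of a step), which means 160.1 and 145.4 M cuts if 1 step is 1 cut scaled to a total of 1 M, and counting errors of log2 ratios take 1 step as 1 count. The deposited false discovery rates are q-values, listed up to 0.05. The footprint score the authors deposited is the same throughout, so only positions were used. For the aligner and the peak caller, no name is given in the sources used here.

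Main values came from the shorter peak list. Starts came from GENCODE M21 (GRCm38.p6), sequences from RefSeq's GRCm38 genome. Promoter peaks overlapped the 1 kb on either side of a start; starts within 500 bp were joined; peaks of both mice that overlapped by 1 bp were merged into sites. A footprint counted as inside when wholly inside a peak. Scripts ran in Python 3.11.15 with NumPy 2.4.6 and matplotlib 3.10.9 and were tested on simulated data. With 1 group of 2 mice no comparison was tested. All 34 genes are accounted for; of the 53 further genes, the 3 highest means and those without a peak were named by rule (some listed genes are not reported here), and others were named after their values were seen, as were the sequences of the Adcy5 intron, Pde4d-203 and the sites away from promoters. The members and lists were chosen with earlier results of these data known. Alternatives tried: the higher 50% of peaks, the longer list, windows of 500 and 2500 bp, coding starts alone, peaks nearer to other genes left out, other joining distances, heights divided by the library's median promoter peak, and leaving out each library. Matching by place, GC ranges, the height range and the search of all sites were added after seeing the data.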

Additional observations from a re-analysis of the deposited data

How the results depend on the processing

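The share of members with a promoter peak was 72.1% and ran from 67.6% to 76.5% without 1 of the mice. It stayed within 1 SD with the longer peak list (77.9%), with windows of 500 and 2500 bp, with coding starts alone and without peaks nearer to another gene, and was 55.9% with the higher 50% of the peaks. The number of member sites was 626 with the longer peak list and ran from 234 to 315 without 1 of the mice; 234, without replicate 1, is over 1.5 times below 365. The share of sites in both mice was 36.4% when a reciprocal overlap of 50% was required. The share of open start groups was 39.6% with the longer list. The median log2 ratio was 0.66 with heights divided by the library's median promoter peak, 1.23 in whole steps, 1.07 with the longer list and 0.98 matched by place. Patterns were also searched in the 500 bp around the middle of each peak, a window longer than the peaks. Member shares are means of both mice, with all promoter peaks of replicates 1 and 2 in parentheses. The cyclic AMP response element had 4.23% (2.59% and 3.24%), its looser form TGACGNNA 8.17% (10.7% and 12.4%) and the CTCF core 25.3% (20.2% and 20.1%). GGGCGG had 57.5% (66.4% and 68.1%), CCGGAAG 6.47% (14.9% and 17.2%) and AP-1 (TGANTCA) 5.35% (7.59% and 8.04%). The E-box CAGCTG had 32.4% (27.2% and 26.3%), EGR (GCGTGGGCG) 1.41% (1.71% and 1.76%) and NRF1 (GCATGCGC) 1.97% (4.39% and 5.24%). The E-box CAGATG, above all promoter peaks in the called peaks, had 20.6% (21.4% and 20.8%). No paired analysis was possible because the samples form 1 group. Limits: 2 libraries of unequal height give the spread, heights under the threshold of the lists are not seen, and counting errors cover sampling of cuts only.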
